A study of Mus musculus with 18 samples.

Results

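The 12 arrays described here compare the maturation of splenic natural killer (NK) cells with and without Runx3. They are the 3 arrays of each of 4 groups, out of 18 arrays in the series: CD11b and CD27 cells of Runx3 -/- mice (KO), and CD11b and CD27 cells of Runx3 +/+ mice (WT). For each probe set the change of CD11b over CD27 cells was taken within each sample, by replicate number, and the WT change was subtracted from the KO change. This difference of changes, the interaction of genotype and maturation, is positive where the KO change lies above the WT change and negative where it lies below. All mice, of both genotypes, were ICR mice of 6 weeks of either sex, and all had received 2 injections of IL15/Ra complexes, 2 days apart. These join the cytokine interleukin-15 to its alpha receptor chain, a form that activates and expands NK cells, and there is no resting group. Spleen NK cells were enriched by negative selection and NKp46+ cells were sorted as CD27+CD11b- (called CD27), CD27+CD11b+ (called DP) and CD27-CD11b+ (called CD11b). The labels give the knockout only as Runx3 -/-, name no promoter or cell type for the deletion, and do not say whether arrays of one replicate number came from the same animals or from pools. P-values therefore measure the spread between these samples, which may be technical.

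NK cells of the mouse mature through the stages CD27, DP and CD11b. Immature cells carry cytokine and homing receptors such as Kit, Il7r and Cxcr4, and mature cells carry the granule proteins, integrins and egress receptors of circulating killer cells. Runx3 belongs to the Runt-domain transcription factors, which bind DNA together with Cbfb and can activate or repress their targets. The interaction asks which genes change along this path in WT cells and not, or less, in KO cells, and which change in KO cells alone.

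The targeted gene was read on every array. Runx3 had log2 signals of 11.46, 11.24 and 11.10 in KO CD11b cells and 10.94, 11.14 and 10.73 in KO CD27 cells, against 11.62, 11.85 and 11.80 in WT CD11b cells and 11.39, 11.49 and 11.46 in WT CD27 cells. KO arrays lay below WT arrays at both stages without overlap, but the transcript was still read. Whether this probe set covers sequence that the knockout removed is not known here, so the signal checks the labels weakly. The Runx3 change was 0.33 in KO and 0.31 in WT, and the interaction was 0.03 (95% interval -0.22 to 0.27, limma adjusted p = 0.970). The sort genes moved alike in both genotypes by value. Cd27 fell by 2.14 log2 in KO and by 1.92 in WT (interaction -0.22, interval -0.73 to 0.29, adjusted p = 0.821), and Itgam, which encodes CD11b, rose by 2.66 in KO and 2.46 in WT (interaction 0.20, -0.57 to 0.98, adjusted p = 0.912). NK markers averaged 12.73 to 13.14 on the arrays of all 6 groups, with Ncr1 (NKp46) and Nkg7 among the brightest genes.

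The CD11b array of KO replicate 3 carried markers of other cells. All 14 neutrophil markers were higher on it than on the other KO CD11b arrays. Lcn2 read 12.27 there, against 4.85 and 5.02 on the other KO CD11b arrays and at most 5.0 on WT CD11b arrays. The MHC class II invariant chain Cd74 read 11.68 there and 6.97 and 5.30 on the other KO CD11b arrays, and the lysozyme gene Lyz2 read 12.27, 7.96 and 5.02 on KO CD11b replicates 3, 1 and 2, against at most 5.32 on WT CD11b arrays. The mean over the neutrophil list ranged from 5.18 to 9.40 on KO CD11b arrays and from 5.12 to 5.19 on WT CD11b arrays. Its median interaction was 1.64 log2, and 0.02 without KO replicate 3. For the markers of dendritic cells and MHC class II the median was 1.5 with and 0.21 without this replicate, for B cell markers 0.45 and 0.12, and for macrophage markers 0.11 and 0.01. The CD27 array of KO replicate 3 also carried markers of other cells. Cpa3, of the mast cell and basophil list, read 8.77 there, against 5.26 and 5.34 on the other KO CD27 arrays. Cd74 read 7.86 there, against 5.33 and 5.62. The mean over the mast cell and basophil list was 6.13 on this CD27 array and 6.05 on the CD11b array of the same replicate. This list's median interaction was 0.01 with and without the replicate. No gene of these lists passed the interaction test. Without the arrays of KO replicate 3 the size of each called gene's interaction was 0.796 to 1.16 times that with them, and the number of called probe sets was 21. The calls were made with this replicate in the fit, where a change seen in it alone widens the spread. Lcn2, with KO paired changes of 0.08, 0.09 and 7.51, did not pass (limma adjusted p = 0.705). Similar sizes among called genes were therefore favoured by their selection. In sorted bulk samples, fewer cells of a type and less RNA per cell cannot be told apart.

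Of 35399 probe sets, 117 (0.331%) passed the interaction test at an adjusted p under 0.05 by limma, 71 higher (0.201%) and 46 lower (0.13%). They cover 88 genes that a probe set names alone, 14 of the probe sets being those of one gene, Nlrc5, and 15 probe sets having no single symbol. Loss was the commonest outcome. In 71 probe sets (48 genes) the WT change passed and the KO change did not, called lost here, although a change that does not pass is not shown to be 0. In 30 (26 genes) both passed with the KO change smaller, called weakened. Gained changes, which passed in KO only, numbered 10 (8 genes), strengthened ones 5 (5 genes), and 1 gene, Cyria, turned direction. Lost and weakened changes made up 86.3% of the calls. All 117 had 3 KO paired changes that did not overlap the 3 WT ones, as did 14.2% of all probe sets. Sizes ran from 0.41 to 3.68 log2, and 62 were at least 1.

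The count depends on the pairing and on single replicates. Without the replicate block 13 probe sets passed (0.0367%), 5 higher (0.0141%) and 8 lower (0.0226%), all of them among the 117. The count was 7 without KO replicate 1, 26 without KO replicate 2, 21 without KO replicate 3, 16 without WT replicate 2 and 55 without WT replicate 3. Each of the 117 kept its sign in all 6 of these fits, the one without WT replicate 1 included. Their KO and WT paired changes did not overlap, so leaving out a replicate could not turn a sign. Judged by the brightest probe set of each gene, 84 genes passed. Of these, 7 passed in all 6 such fits: Nuak1, Mef2c, Avil, Zc3h12d, Dscam, Scel and Serpina4-ps1. Without the block 11 passed, and Nuak1, Avil and Dscam passed both ways.

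**Figure D1:**
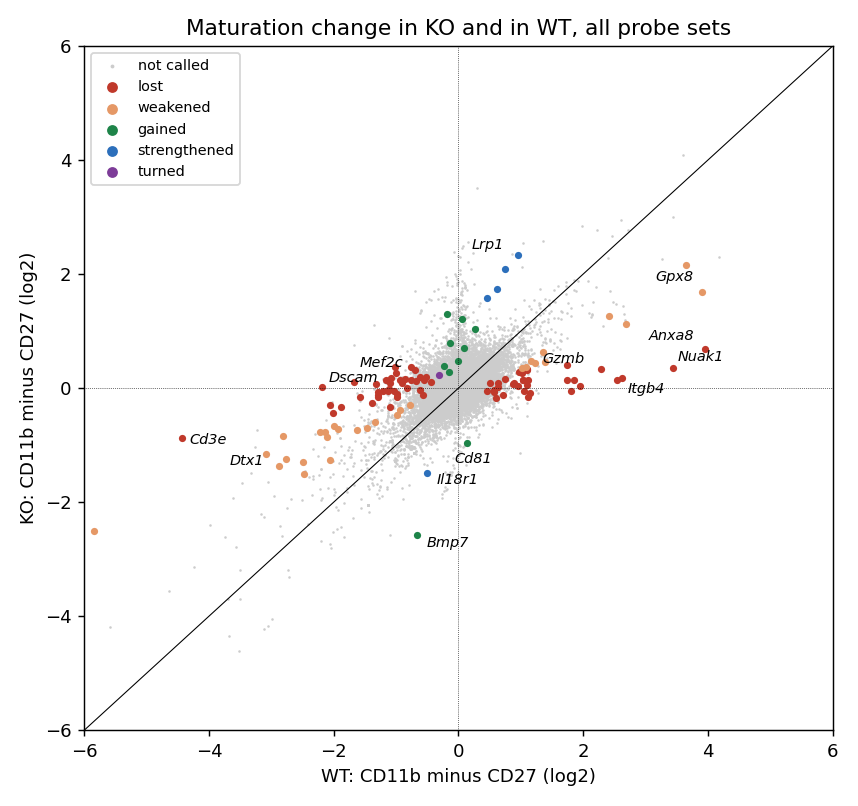
Each point is a probe set, with its CD11b minus CD27 change in WT (x axis, log2) and in KO (y axis, log2), and colours mark the classes of the 117 that passed the interaction test. Lost and weakened genes lie between the horizontal zero line and the diagonal of equal change or near that line, lost ones with KO changes that did not pass (Cd3e at -0.87, Anxa8 at 0.69), and gained and strengthened genes lie farther from the horizontal line than from the vertical one, such as Lrp1 above and Bmp7 below.

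Lost rises made up 33 of the 71 lost probe sets and 27 of the 48 genes. These 27 genes rose with maturation in WT cells, and in 17 of them KO CD11b cells lay below WT CD11b cells (limma without the block). Nuak1, a kinase related to AMP-activated kinase, is the clearest case. It read 5.28, 5.50 and 5.28 in KO CD11b cells and 5.04, 4.97 and 5.0 in KO CD27 cells, against 8.69, 8.23 and 8.88 in WT CD11b cells and 5.24, 5.13 and 5.13 in WT CD27 cells. Its level was high in WT CD11b cells alone, with every other array, DP arrays included, at 5.70 or less. The WT rise was 10.8-fold and the KO value 1.27-fold (KO adjusted p = 0.101). The interaction was -3.09 log2 (95% interval -3.43 to -2.74, limma adjusted p = 4.49e-05, and 1.55e-05 without the block), and the adjusted p did not exceed 0.00277 with any replicate left out.

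Anxa8, an annexin that binds phospholipids in the presence of calcium, read 6.56, 5.57 and 5.94 in KO CD11b cells and 5.38, 5.39 and 5.25 in KO CD27 cells. In WT it read 8.58, 9.89 and 9.52 in CD11b cells and 5.55, 5.35 and 5.22 in CD27 cells. The mature groups did not overlap and the immature groups did. The interaction was -3.27 (-4.17 to -2.36, limma adjusted p = 0.0104, 0.0426 without the block, and up to 0.0832 without KO replicate 1). The integrin chain Itgb4, which pairs with alpha 6 in a laminin receptor, had the same form. It read 5.77, 5.56 and 5.36 in KO CD11b cells and 5.44, 5.32 and 5.42 in KO CD27 cells, against 8.04, 8.72 and 7.15 in WT CD11b cells and 5.40, 5.27 and 5.40 in WT CD27 cells. Its interaction was -2.44 (-3.19 to -1.70, limma adjusted p = 0.0190, 0.0426 without the block, and up to 0.152 without KO replicate 1).

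Further genes of this group were Dixdc1, a DIX-domain protein of Wnt signalling, and the transmembrane protein gene Tmem108. Dixdc1 had a KO change of 0.04 and a WT change of 1.95 (interaction -1.91, limma adjusted p = 0.00774, 0.0426 without the block, 0.0832 without KO replicate 1). Tmem108 had a KO change of -0.06 and a WT change of 1.81 (interaction -1.87, adjusted p = 0.0484, 0.286 without the block, 0.280 without KO replicate 1). Avil and Scel are named after their values were seen, because their calls survived each left-out replicate. Avil encodes advillin, an actin-binding protein of the villin family, and read 6.19, 6.19 and 5.90 in KO CD11b cells and 5.86, 6.11 and 5.88 in KO CD27 cells, against 8.11, 8.48 and 7.82 in WT CD11b cells and 6.33, 6.56 and 6.28 in WT CD27 cells. Its interaction was -1.60 (-1.88 to -1.32, limma adjusted p = 0.00124 and 0.0315 without the block). Scel, which encodes sciellin, had a KO change of 0.15 and a WT change of 1.85 (interaction -1.70, limma adjusted p = 0.00146, 0.0689 without the block).

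In 5 of the 27 lost rises the difference lay at the other end: KO CD27 cells already stood above WT CD27 cells. They include genes of the cytotoxic granule. Gzmb, which encodes granzyme B, the protease that starts death of the target cell, read 12.67, 12.86 and 12.60 in KO CD11b cells and 12.49, 12.28 and 12.35 in KO CD27 cells. In WT it read 12.74, 12.51 and 12.59 in CD11b cells and 10.86, 9.68 and 10.43 in CD27 cells. The CD11b groups overlapped, while each KO CD27 array lay above each WT CD27 array. The KO value was 1.26-fold and the WT rise 4.89-fold, with an interaction of -1.96 (-2.42 to -1.49, limma adjusted p = 0.00692, 0.0426 without the block, up to 0.0832 without KO replicate 1).

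Serpinb9b, of the serpin family that includes granzyme B inhibitors, behaved alike by value. It read 12.72, 13.32 and 13.31 in KO CD11b cells and 12.83, 13.01 and 13.11 in KO CD27 cells, against 12.75, 12.32 and 12.32 in WT CD11b cells and 10.50, 10.22 and 9.03 in WT CD27 cells. Each KO array but CD11b replicate 1 lay above every WT array, and the interaction was -2.41 (-3.03 to -1.80, limma adjusted p = 0.00814, 0.0758 without the block, up to 0.107 without KO replicate 1). Gzma, which encodes granzyme A, read 13.46, 13.52 and 13.36 in KO CD11b cells and 13.33, 13.46 and 13.28 in KO CD27 cells, against 13.56, 13.54 and 13.55 in WT CD11b cells and 13.00, 12.88 and 12.89 in WT CD27 cells. These values are near the top of the array's range of 3.91 to 14.96. The interaction of Gzma was -0.53 (-0.68 to -0.39, limma adjusted p = 0.0103, 0.0877 without the block, up to 0.118 without WT replicate 2). The transcription factor gene Bhlhe40 had a KO change of 0.33 and a WT change of 1.09 (interaction -0.77, limma adjusted p = 0.0484, 0.450 without the block, 0.252 without WT replicate 2), and neither of its end comparisons passed.

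Promoters of 3 lost genes are shown because they stand for both forms of a lost rise and differ in their matches to the Runt core motif. Each runs from 250 bases before to 50 bases after the RefSeq start of the gene (build GRCm38.p6), 5′ to 3′ on the gene's strand: chr10:84440619-84440918 on the minus strand for Nuak1, chr14:34085729-34086028 on the plus strand for Anxa8 and chr14:56262285-56262584 on the minus strand for Gzmb. Capitals mark matches to TGTGGT or TGCGGT on either strand.
Nuak1: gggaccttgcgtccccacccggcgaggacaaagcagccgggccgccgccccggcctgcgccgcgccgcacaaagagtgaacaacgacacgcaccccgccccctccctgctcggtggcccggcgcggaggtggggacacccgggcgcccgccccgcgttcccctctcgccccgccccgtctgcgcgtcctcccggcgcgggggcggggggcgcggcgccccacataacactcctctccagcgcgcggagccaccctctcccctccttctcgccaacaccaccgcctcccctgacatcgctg
Anxa8: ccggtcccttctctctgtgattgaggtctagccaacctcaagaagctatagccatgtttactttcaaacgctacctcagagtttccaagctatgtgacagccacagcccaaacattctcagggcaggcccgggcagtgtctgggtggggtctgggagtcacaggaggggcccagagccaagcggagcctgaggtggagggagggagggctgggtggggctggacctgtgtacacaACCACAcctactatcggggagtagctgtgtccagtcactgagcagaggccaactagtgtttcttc
Gzmb: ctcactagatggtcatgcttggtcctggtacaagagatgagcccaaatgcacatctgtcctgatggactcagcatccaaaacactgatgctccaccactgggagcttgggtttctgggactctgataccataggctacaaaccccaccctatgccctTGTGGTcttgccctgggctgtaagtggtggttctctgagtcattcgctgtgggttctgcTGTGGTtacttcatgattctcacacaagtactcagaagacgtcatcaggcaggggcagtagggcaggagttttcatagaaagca
Gzmb held 2 TGTGGT matches, at -93 and -34 bases from the start, Anxa8 held 1 on the opposite strand at -15, and Nuak1 held none. Of all 32851 promoters of this length 22.4% held a match to one or the other motif, TGTGGT in 16.8% and TGCGGT in 6.45%. Of 13 promoters of the 10 lost genes named for their size, 9 of which were matched, 3 held one (23.1%). Of 90 promoters of the 84 called genes and Nlrc5, where 68 of the 85 symbols were matched, 28.9% held one. A match is a string of letters in this window and not a measured binding site.

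**Figure D2:**
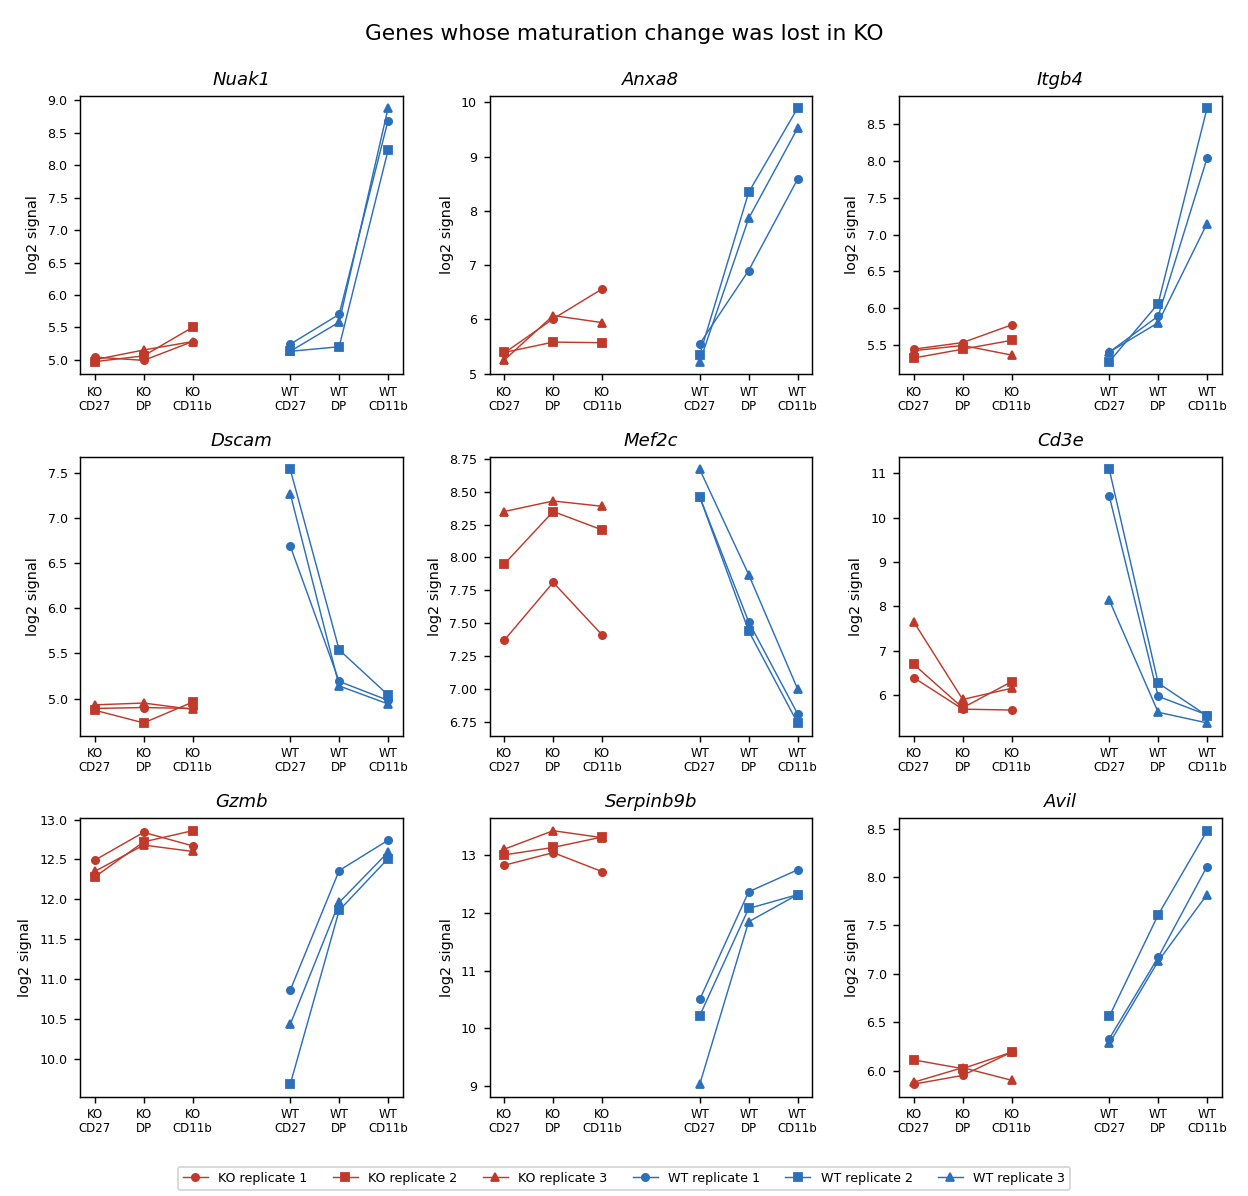
Log2 signal on every array of 9 genes whose maturation change was lost, KO left and WT right in each panel, along CD27, DP and CD11b, with lines joining arrays of one replicate number. Nuak1, Anxa8, Itgb4 and Avil stayed low in KO, Gzmb and Serpinb9b were high at every KO stage, Dscam was low at every KO stage, Cd3e was lower in KO than in WT CD27 cells, and Mef2c was near its immature WT level in 2 KO replicates and lower in KO replicate 1.

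Lost falls covered 21 genes, of which 19 passed by their brightest probe set. KO CD27 cells lay below WT CD27 cells in 8 of the 19, KO CD11b cells lay above WT CD11b cells in 4, and neither end passed in 7. Dscam, an adhesion molecule of the immunoglobulin superfamily, belongs to the 8. It read 4.89, 4.96 and 4.88 in KO CD11b cells and 4.89, 4.87 and 4.93 in KO CD27 cells, against 4.98, 5.04 and 4.94 in WT CD11b cells and 6.69, 7.54 and 7.27 in WT CD27 cells. Only WT CD27 cells stood above the rest, 4.82-fold over KO CD27 cells. The interaction was 2.19 (1.79 to 2.60, limma adjusted p = 0.00133, 0.00200 without the block, and at most 0.0375 with a replicate left out).

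Cd3e, which encodes the CD3 epsilon chain of the T cell receptor complex, had the largest interaction of a named gene. It read 5.66, 6.30 and 6.15 in KO CD11b cells and 6.39, 6.69 and 7.65 in KO CD27 cells, against 5.55, 5.53 and 5.37 in WT CD11b cells and 10.49, 11.09 and 8.14 in WT CD27 cells. The WT CD27 arrays were all above the KO CD27 arrays, WT replicate 3 by the least. The interaction was 3.55 (2.18 to 4.93, limma adjusted p = 0.0498, 0.225 without the block, up to 0.272 without KO replicate 1). Of the list of 13 T cell markers, Cd3e alone passed the interaction test, and the list's median interaction was 0.45 (0.42 without KO replicate 3). Its mean, Cd3e included, was 6.57 to 6.83 on KO CD11b arrays and 7.18 to 7.39 on KO CD27 arrays, against 6.42 to 6.57 on WT CD11b arrays and 7.59 to 7.91 on WT CD27 arrays. The log2 of its summed level was 11.80 to 12.13 in KO CD11b, 13.08 to 13.47 in KO CD27, 11.89 to 12.20 in WT CD11b and 13.63 to 13.81 in WT CD27 cells. Cd3d read 6.06, 6.43 and 6.23 in KO CD11b cells and 9.0, 8.51 and 8.42 in KO CD27 cells. In WT it read 6.29, 5.86 and 5.78 in CD11b cells and 9.38, 9.93 and 10.58 in CD27 cells. Cd8a, Lat and Bcl11b were also higher on each WT than on each KO CD27 array, and Cd4 was lower. The CD27 groups overlapped for the remaining members. Cd3g and Cd28 were bright, at 9.75 or more on each CD27 and CD11b array, and the interaction of Cd3g was 0.45 (limma adjusted p = 0.664). Cd5, Cd6 and Themis were near the low end on these arrays, at 6.05 or less. The part of T cells in the Cd3e result was not tested.

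Serpina4-ps1 and Serpina5 are neighbours on chromosome 12, with no protein-coding gene between them in the RefSeq table. Serpina4-ps1, named after its values were seen, read 7.88, 7.19 and 6.94 in KO CD11b cells and 7.95, 7.29 and 7.23 in KO CD27 cells, against 7.35, 7.56 and 7.97 in WT CD11b cells and 8.98, 9.09 and 9.53 in WT CD27 cells. The immature stages did not overlap and the mature ones did. Its interaction was 1.42 (limma adjusted p = 0.00513, 0.449 without the block) and that of Serpina5 was 1.39 (adjusted p = 0.0131, 0.589 without the block). In all, 4 pairs of called genes had at most 2 protein-coding genes between them, and each pair had interactions of one sign. Noncoding genes between them were not counted. The share of such pairs among genes at large was not counted either, so these pairs are only listed. The others were S100a4 with S100a6, Gpx8 with Gzma and Maml2 with Phxr4. The probe set of Phxr4 lies beside Maml2, so the pair may share transcripts and its values are uncertain.

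Among the lost falls that ended high in KO were Cxcr4 and Mef2c. Cxcr4, the receptor for CXCL12 that holds immature NK cells in the bone marrow, read 9.93, 10.86 and 11.41 in KO CD11b cells and 10.64, 11.19 and 11.70 in KO CD27 cells. In WT it read 8.97, 9.08 and 7.87 in CD11b cells and 10.67, 11.06 and 10.20 in CD27 cells. The CD27 groups overlapped, and each KO CD11b array lay above each WT CD11b array. Its interaction was 1.56 (1.16 to 1.96, limma adjusted p = 0.00814), but 0.793 without the block and 0.0631 without WT replicate 2.

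Mef2c, a transcription factor of the MADS-box family, showed what the pairing does. It read 7.41, 8.21 and 8.39 in KO CD11b cells and 7.37, 7.95 and 8.35 in KO CD27 cells, against 6.81, 6.74 and 7.0 in WT CD11b cells and 8.46, 8.46 and 8.67 in WT CD27 cells. The KO replicates lay far apart at each stage, replicate 1 lowest at both, yet within each replicate the KO change was 0.26 at most. The interaction was 1.79 (1.54 to 2.04, limma adjusted p = 0.000209, at most 0.0122 with a replicate left out) and 0.197 without the block.

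Nlrc5, which encodes a transactivator of MHC class I genes, was chosen after its values were seen, because it supplied 14 of the 117 calls. Its 19 probe sets read 1 gene and are not independent. Averaged over them, the signal was 9.86, 9.72 and 9.71 in KO CD11b cells and 9.72, 9.62 and 9.64 in KO CD27 cells, against 9.10, 8.21 and 9.04 in WT CD11b cells and 9.65, 9.29 and 10.06 in WT CD27 cells. WT CD11b cells were below all others. All 19 probe sets fell in WT, by 0.52 to 1.22 log2, none passed in KO (-0.15 to 0.37), and interactions ran from 0.62 to 1.37. The probe set with the highest mean missed the threshold (limma adjusted p = 0.0632). No Nlrc5 probe set passed without the block or without KO replicate 1, 2 or 3 or WT replicate 2, 1 passed without WT replicate 3, and 14 did without WT replicate 1. Among genes that this protein is known to act on, B2m, Tap1 and Psmb9 did not pass. B2m had an interaction of 0.12 (-0.03 to 0.28, adjusted p = 0.598), Tap1 of 0.37 (0.16 to 0.58, adjusted p = 0.184) and Psmb9 of -0.06 (-0.41 to 0.28, adjusted p = 0.944). Tap1 changed by -0.33 in WT (limma adjusted p = 0.00921) and by 0.04 in KO (adjusted p = 0.817). Looked up with these genes, Tap2 (interaction 0.09), Tapbp (0.01) and Psmb8 (0.29) did not pass either (limma adjusted p = 0.902, 0.981 and 0.537). No values are given here for the class I heavy chain genes, and an effect on the class I pathway was not tested.

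**Figure D3:**
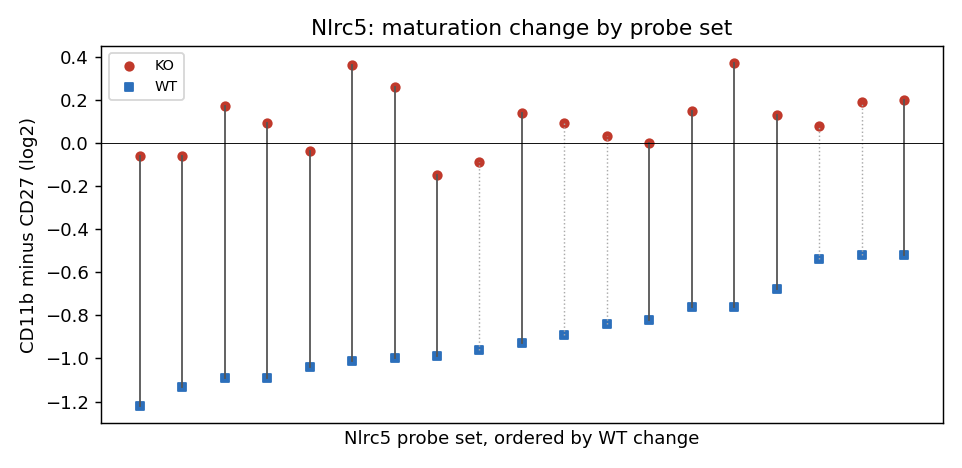
The CD11b minus CD27 change (log2) of each of the 19 Nlrc5 probe sets in KO and in WT, ordered by the WT change, with solid lines for the 14 whose interaction passed and dotted lines for the others. Every WT point lies below zero, between -1.22 and -0.52, and KO points lie between -0.15 and 0.37.

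Weakened changes kept their direction in KO. Of the 9 genes that rose in both genotypes, 4 were lower in KO CD11b cells, 3 were higher in KO CD27 cells and 2 passed at neither end. Gpx8, a glutathione peroxidase family member of the endoplasmic reticulum, lies next to Gzma on chromosome 13 when only protein-coding genes are counted. It read 12.82, 12.74 and 12.36 in KO CD11b cells and 11.27, 11.17 and 10.45 in KO CD27 cells, against 12.90, 13.03 and 12.94 in WT CD11b cells and 9.78, 8.74 and 8.65 in WT CD27 cells. KO CD27 arrays were above all WT CD27 arrays, so that a rise of 3.21-fold in KO stood beside one of 14.9-fold in WT (interaction -2.22, -2.83 to -1.61, limma adjusted p = 0.0104, 0.0689 without the block, 0.123 without KO replicate 1). Rab27a, a small GTPase needed for the release of cytotoxic granules, had the same form, with a KO change of 0.37 and a WT change of 1.08 (interaction -0.71, limma adjusted p = 0.0329, 0.0935 without the block, 0.199 without WT replicate 2).

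Ndrg2 and Cbr2 fell short at the mature end. Ndrg2 read 6.93, 7.48 and 7.04 in KO CD11b cells and 6.07, 5.88 and 6.14 in KO CD27 cells, against 8.91, 9.05 and 8.93 in WT CD11b cells and 6.37, 6.39 and 6.08 in WT CD27 cells. KO CD11b arrays lay above the CD27 arrays of both genotypes and below WT CD11b arrays, with an interaction of -1.57 (-1.98 to -1.15, limma adjusted p = 0.00934, 0.0133 without the block, 0.107 without KO replicate 1). The carbonyl reductase gene Cbr2 rose 4.45-fold in KO and 12.5-fold in WT (interaction -1.49, limma adjusted p = 0.0340, 0.170 without the block, 0.222 without WT replicate 2).

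Of 17 genes that fell in both genotypes and less in KO, 6 were higher in KO CD11b cells, 4 were lower in KO CD27 cells and 7 passed at neither end. Dtx1, a regulator of Notch signalling, read 10, 10.10 and 9.31 in KO CD11b cells and 11.25, 11.05 and 10.84 in KO CD27 cells. In WT it read 7.94, 7.95 and 7.71 in CD11b cells and 10.55, 10.42 and 10.93 in CD27 cells. The KO CD11b arrays were all above the WT CD11b arrays, by 3.82-fold on average (interaction 1.52, 1.08 to 1.96, limma adjusted p = 0.0136, 0.170 without the block, 0.151 without KO replicate 1). Zc3h12d, of the CCCH zinc finger RNase family, read 8.10, 8.0 and 7.94 in KO CD11b cells and 8.95, 8.64 and 8.73 in KO CD27 cells, against 6.95, 7.10 and 6.55 in WT CD11b cells and 9.25, 9.44 and 8.58 in WT CD27 cells. The fall was 1.70-fold in KO and 4.66-fold in WT (interaction 1.46, 1.19 to 1.72, limma adjusted p = 0.00133, at most 0.0297 with a replicate left out, 0.197 without the block). Inpp4b, a phosphatase of phosphoinositide signalling that marks immature and ILC1-like cells, had a KO change of -1.51 and a WT change of -2.48 (interaction 0.97, limma adjusted p = 0.0316, 0.583 without the block, 0.189 without KO replicate 1). Other weakened falls were those of Trgv1 (interaction 1.94), a T cell receptor gamma segment, Phxr4 (1.96) and the lipid raft protein gene Rftn1 (1.5). Without the block their limma adjusted p-values were 0.148, 0.149 and 0.480, and without KO replicate 1 they were 0.0832, 0.107 and 0.192.

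**Figure D4:**
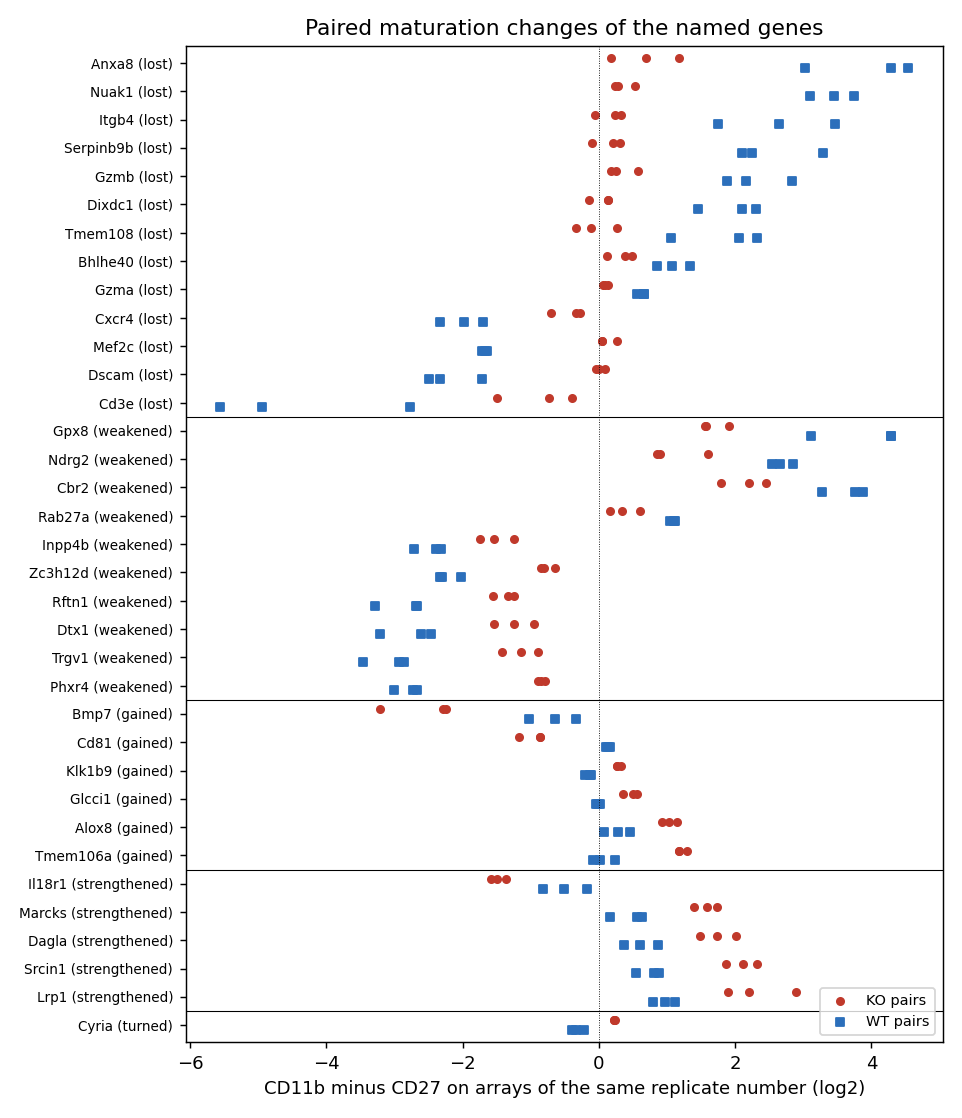
CD11b minus CD27 change (log2) within each replicate, 3 KO pairs (circles) and 3 WT pairs (squares), for the 35 genes named for their class or their list. The KO and WT changes of each gene do not overlap, which was also a condition for naming genes by class. Lost genes are those whose KO change did not pass, and their mean KO changes run from -0.87 (Cd3e) to 0.69 (Anxa8).

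Gained changes were few. Among the named ones Bmp7 and Cd81 fell and the others rose in KO. Bmp7, a ligand of the bone morphogenetic protein family, read 5.66, 5.52 and 5.55 in KO CD11b cells and 8.87, 7.77 and 7.83 in KO CD27 cells, against 5.58, 5.39 and 5.49 in WT CD11b cells and 6.61, 6.03 and 5.82 in WT CD27 cells. It was high in KO CD27 cells, 4.0-fold over WT CD27 cells, and the CD11b groups overlapped. The WT change of -0.66 missed the threshold (limma adjusted p = 0.0658), and the interaction was -1.91 (-2.56 to -1.27, adjusted p = 0.0268, 0.196 without the block, 0.184 without WT replicate 2).

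The tetraspanin gene Cd81 read 8.37, 8.24 and 9.36 in KO CD11b cells and 9.55, 9.10 and 10.22 in KO CD27 cells, against 5.97, 5.96 and 5.81 in WT CD11b cells and 5.86, 5.79 and 5.68 in WT CD27 cells. KO cells stood far above WT cells at both stages and declined with maturation by 0.96 log2, while the WT value was 0.14 (interaction -1.10, -1.36 to -0.85, limma adjusted p = 0.00574, 0.775 without the block, 0.0546 without KO replicate 1). Tmem106a went the other way. It read 8.64, 8.59 and 9.24 in KO CD11b cells and 7.47, 7.30 and 8.07 in KO CD27 cells, against 7.03, 6.71 and 7.11 in WT CD11b cells and 7.02, 6.79 and 6.87 in WT CD27 cells. Its interaction was 1.16 (0.91 to 1.41, limma adjusted p = 0.00486, 0.391 without the block, 0.0546 without KO replicate 1). Smaller gains were those of the lipoxygenase gene Alox8 (interaction 0.77), Glcci1 (0.48) and the kallikrein family gene Klk1b9 (0.44). Without the block their limma adjusted p-values were 0.795, 0.643 and 0.430, and each lost its call in all 6 fits that left out a replicate.

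All 5 strengthened genes passed the comparison of genotypes at the mature end and none at the immature end, 4 higher and 1 lower in KO CD11b cells. Lrp1, an endocytic receptor of the low-density lipoprotein receptor family, read 8.03, 7.74 and 8.87 in KO CD11b cells and 5.83, 5.84 and 5.97 in KO CD27 cells, against 6.58, 6.76 and 6.63 in WT CD11b cells and 5.78, 5.65 and 5.66 in WT CD27 cells. It was highest on the CD11b array of KO replicate 3, where the macrophage and neutrophil markers were also highest, and their part in the result was not tested. The interaction was 1.37 with that replicate and 1.09 without it (limma adjusted p = 0.0263 and 0.0442), against 0.259 without the block and 0.163 without KO replicate 1. Srcin1, an inhibitor of SRC kinase signalling, read 9.07, 9.0 and 8.18 in KO CD11b cells and 6.75, 6.89 and 6.31 in KO CD27 cells, against 7.04, 7.37 and 7.14 in WT CD11b cells and 6.5, 6.49 and 6.34 in WT CD27 cells. Replicate 3 was here the lowest of the KO CD11b arrays, and the interaction was 1.35 (1.05 to 1.65, limma adjusted p = 0.00513, 0.230 without the block, 0.0546 without KO replicate 1).

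Il18r1, a chain of the interleukin-18 receptor, fell more in KO. It read 10.61, 11.08 and 10.75 in KO CD11b cells and 12.20, 12.46 and 12.25 in KO CD27 cells, against 11.97, 12.14 and 12.12 in WT CD11b cells and 12.79, 12.65 and 12.31 in WT CD27 cells. Mature KO cells were below every other group (interaction -0.98, -1.29 to -0.67, limma adjusted p = 0.0217, 0.170 without the block, 0.171 without KO replicate 1). Dagla, a diacylglycerol lipase of endocannabinoid synthesis, had an interaction of 1.13 (limma adjusted p = 0.0225, 0.0704 without the block, 0.173 without WT replicate 2). The protein kinase C substrate gene Marcks had one of 1.12 (limma adjusted p = 0.0126, 0.0315 without the block, 0.0855 without KO replicate 3). Cyria, which encodes a Rac1-binding protein, rose by 0.23 in KO and fell by 0.32 in WT (interaction 0.55, limma adjusted p = 0.0194, 0.391 without the block, 0.163 without WT replicate 2).

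**Figure D5:**
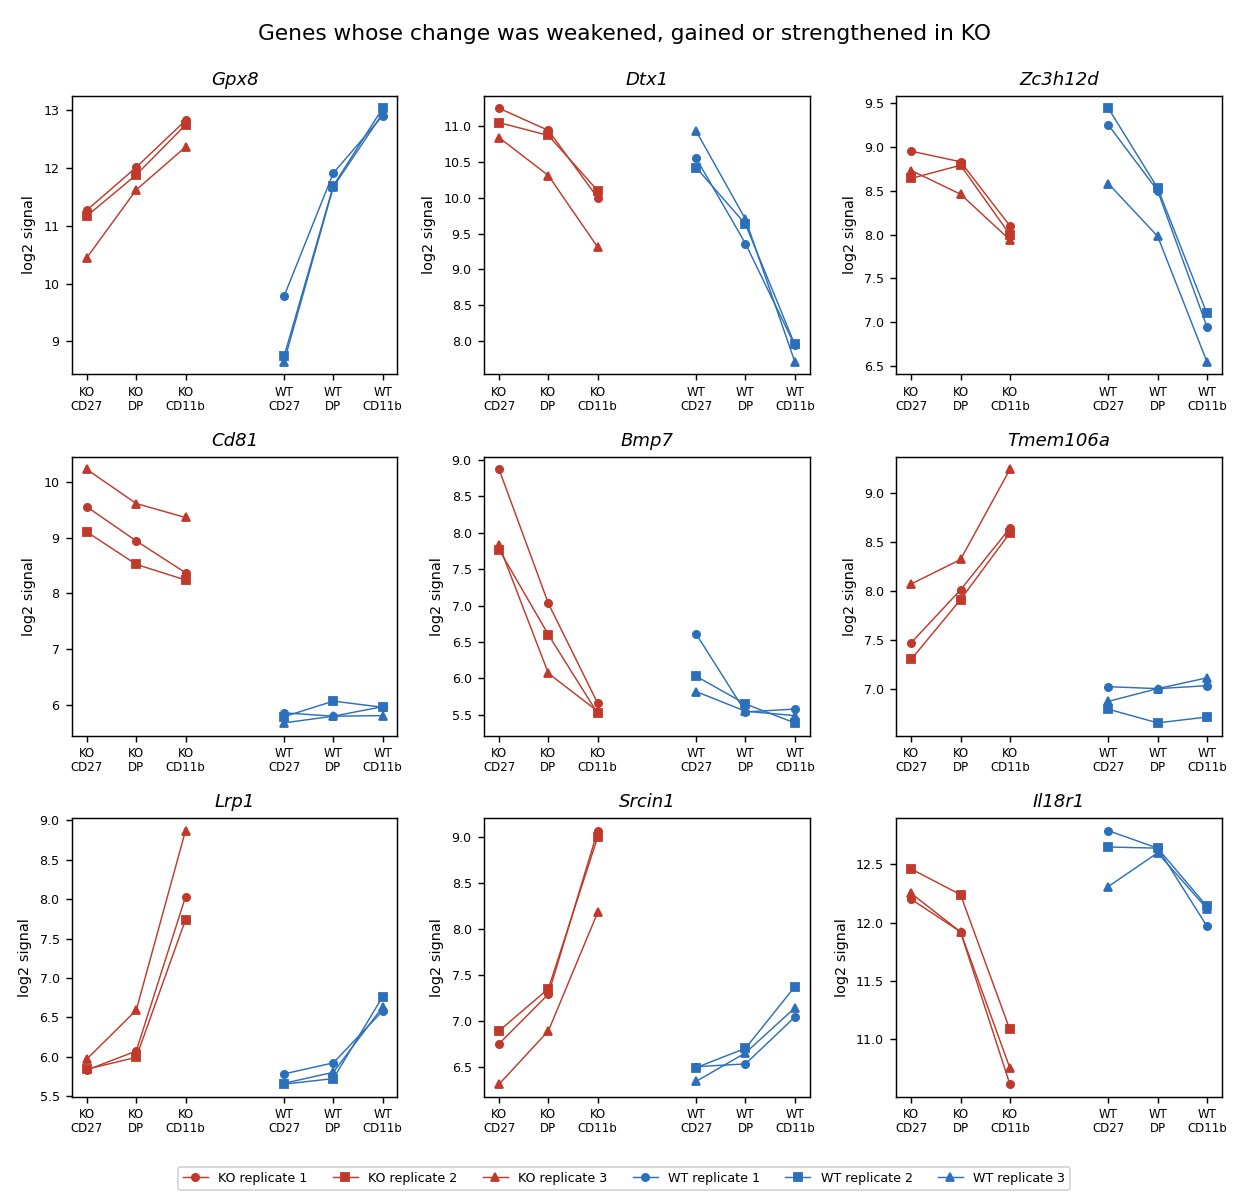
Log2 signal on every array of 9 genes whose change was weakened, gained or strengthened, KO left and WT right in each panel, along CD27, DP and CD11b, with lines joining arrays of one replicate number. Gpx8 starts higher in KO, Dtx1 and Zc3h12d end higher in KO, and Cd81 is above 8 on every KO array and below 6.1 on every WT array. Lrp1 and Srcin1 are higher in KO without overlap at DP and are farthest apart at CD11b.

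By sign, most of the maturation programme moved the same way in both genotypes. The change passed in 2185 probe sets in KO (6.17%, 1292 or 3.65% higher and 893 or 2.52% lower in CD11b) and in 3865 in WT (10.9%, 2240 or 6.33% higher and 1625 or 4.59% lower). Passing in both with one direction were 1377, which is 63% of the KO list and 35.6% of the WT list. Of the probe sets called in KO 94.1% had the same sign in WT, and of those called in WT 89.8% had the same sign in KO. The share with the same sign over all probe sets was not counted. Over the WT list the median change in the WT direction was 0.24 log2 in KO and 0.46 in WT. Over the KO list the median change in the KO direction was 0.49 in KO and 0.41 in WT. A list chosen for its size in one genotype is larger there, so neither comparison is a test. Over all probe sets the median size was 0.10 in KO and 0.11 in WT, and the median SD of the 3 paired changes was 0.158 in KO and 0.128 in WT. The KO count was 734 without the block, 647 without KO replicate 1 and 1189 without KO replicate 3, and the WT count was 1771 without the block, 2315 without WT replicate 1, 1809 without WT replicate 2 and 2072 without WT replicate 3.

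Among the 353 measured genes of 14 lists of NK cell programmes, 11 had an interaction call (3.12%), against 0.421% of all 19938 genes by their brightest probe set. The lists were chosen with earlier results of these data known, so this comparison is not a test. Of 19 mature NK markers, 13 rose and 1 fell in KO, and 17 rose and 1 fell in WT. Only Gzma and Gzmb passed the interaction, both lower, and the list's median interaction was -0.32 log2, beside -0.01 over all genes. Of 21 immature markers 16 fell in KO and 18 in WT. Here Cxcr4 and Inpp4b passed, both higher, and the median was 0.61. The 15 ILC1-like markers had 1 call, Inpp4b, and a median of 0.30. The 33 cytotoxic effectors had 4 calls, all lower (Gzma, Gzmb, Serpinb9b and Rab27a), and a median of -0.03.

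Other lists held 1 or 2 calls or none. Of 33 integrins and adhesion molecules, Dscam was higher and Itgb4 lower (median -0.03). Of 41 NK receptors Cd81 was lower (0.06), of 28 cytokine receptors and JAK-STAT genes Il18r1 was lower (0.04), of 56 transcription factors Bhlhe40 was lower (0.02), and of 25 chemokine and egress receptors Cxcr4 was higher (0.14, and 0.05 without KO replicate 3). No call was made among 6 measured Ly49 receptors, 32 TGF-beta and BMP pathway genes, 31 S phase genes, 31 mitosis genes or 23 type I interferon response genes by limma. Of these lists the members with the smallest p include Ncapd2, a condensin subunit, with an interaction of 0.54 (adjusted p = 0.184), the thymidylate synthase gene Tyms with 0.57 (0.187), the interferon-induced protease gene Usp18 with 0.74 (0.250) and Smad2, which carries TGF-beta signals, with -0.32 (0.322). The mitosis list had a median of 0.27 with KO replicate 3 and 0.49 without it, and the interferon list one of 0.17 and 0.10. KO replicate 3 stood above the other KO replicates in both cell cycle genes named here. Ncapd2 read 10.10 in its CD11b and 9.93 in its CD27 cells, against at most 7.72 on the other KO arrays of these stages. Tyms read 9.66 and 9.44, against at most 7.57. The cause of this spread was not tested.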

How the data were processed

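The authors deposited log2 values of 18 arrays (Mouse Gene 1.0 ST, by the annotation table's platform), made by RMA with Partek, per the submitters' processing notes, which give no versions. No value was filtered. With limma 3.58.1 in R 4.3.3, all 18 arrays were fitted with sample (genotype and replicate number) as a fixed block and subset effects per genotype (8 residual and 2.43 prior degrees of freedom). KO against WT at each stage came from a fit of 6 groups without the block. P-values are two-sided and Benjamini-Hochberg adjusted over 35399 probe sets, of which 21789 carry 1 symbol. A gene is represented by its brightest probe set. The median within-group SD was 0.14, and the number of arrays limits precision.

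Same-numbered CD11b and CD27 arrays deviated together from their group means (r of 0.213 to 0.465 in KO and 0.218 to 0.324 in WT, against medians of -0.299 and -0.151 for other numbers, which centring on 3 arrays lowers). Every same-numbered pair exceeded 0.1, and the numbers were taken to pair these arrays. One KO pair of different numbers (0.238) exceeded the lowest same-numbered value, and same-numbered WT DP and CD27 arrays, also in the fit, ranged from -0.009 to 0.440. The pairing rests on this check, not on the labels.

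Named genes are Runx3, Cd27, Itgam and Ncr1, the largest interactions of each class (up to 10 lost, 8 weakened, 10 gained, 5 strengthened and 5 turned, of which 6 gained and 1 turned met the rule), up to 4 called members of each programme list or else the 2 with the smallest p, and 2 genes of each marker list. Genes named by class also had to have KO paired changes that did not overlap the WT ones. Members, lists and rules were chosen with earlier results of these data known. Alternatives were other normalization, filters, priors, weights, blocks and left-out replicates. The procedure was tested on simulated data.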

Additional observations from a re-analysis of the deposited data

Results flagged for a closer look

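The interaction itself is a difference between the genotypes under one contrast, and 35 of the 60 named genes passed its test (limma, adjusted p under 0.05, n = 3 paired changes per genotype). All values below are KO change minus WT change on the log2 scale. Lost rises were Anxa8 (-3.27), Nuak1 (-3.09), Itgb4 (-2.44), Serpinb9b (-2.41), Gzmb (-1.96), Dixdc1 (-1.91), Tmem108 (-1.87), Bhlhe40 (-0.77) and Gzma (-0.53). Lost falls were Cd3e (3.55), Dscam (2.19), Mef2c (1.79) and Cxcr4 (1.56). Weakened rises were Gpx8 (-2.22), Ndrg2 (-1.57), Cbr2 (-1.49) and Rab27a (-0.71), and weakened falls were Phxr4 (1.96), Trgv1 (1.94), Dtx1 (1.52), Rftn1 (1.5), Zc3h12d (1.46) and Inpp4b (0.97). Gained changes were Bmp7 (-1.91), Tmem106a (1.16), Cd81 (-1.10), Alox8 (0.77), Glcci1 (0.48) and Klk1b9 (0.44). Strengthened changes were Lrp1 (1.37), Srcin1 (1.35), Dagla (1.13), Marcks (1.12) and Il18r1 (-0.98), and Cyria turned direction (0.55). Groups of 3 samples were not tested for outliers.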

How the results depend on the processing

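Each of the 117 called probe sets kept its sign under all 15 alternatives in which it was tested. Only cyclic loess and array weights could have turned a sign. The other alternatives keep the estimate, or leave out a replicate where the paired changes did not overlap. The numbers that passed did not hold, and apart from fits with fewer samples or probe sets the cause was not tested. Without the replicate block 13 passed (5 higher, 8 lower, 12 lost or weakened, 1 gained or strengthened), with 734 changes in KO and 1771 in WT, and 8 of the 35 named calls remained. With a random replicate block (correlation 0.206) 42 passed (22 and 20, with 35 lost or weakened and 7 gained or strengthened). On the 12 CD27 and CD11b arrays alone, with the block, 4 passed (3 and 1, 4 lost or weakened and 0 gained or strengthened), with 767 and 2202 changes, and without the block, an alternative chosen after seeing the data, 2 passed (1 and 1, 2 lost or weakened and 0 gained or strengthened), with 503 and 1433. Array weights, whose estimate stopped before it converged, gave 342 (199 and 143, with 266 and 60), and 6177 changes in WT. One probe set per gene gave 195 (101 lower, with 160 and 25), and cyclic loess gave 24 gained or strengthened. With 1 replicate left out, from 7 to 81 passed (4 to 46 higher, 3 to 35 lower, 7 to 72 lost or weakened, 0 to 12 gained or strengthened), with 647 to 1962 changes in KO and 1809 to 3734 in WT. Sign changes occurred only among named genes that had not passed, and with a replicate left out they could occur only there. With 1 replicate left out, Runx3 ranged from -0.07 to 0.14 (negative without KO or WT replicate 1), Itgam from -0.02 to 0.65 (negative without WT replicate 1 or 2), Lcn2 from -0.06 (without KO replicate 3) to 3.65, and Cpa3 from -0.39 to 0.56 (0.56 without KO replicate 3, 0.23 and 0.04 without WT replicates 1 and 2). Itga2b ranged from -0.06 to 0.07, with 0.07 without KO replicate 3, 0 without WT replicate 2 and 0.02 without WT replicate 3. With array weights Itga2b was 0.11 and Cpa3 0.18.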

Other observations

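Genes outside the named set, chosen here after their values were seen, add to both forms of a lost rise. S100a4, a calcium-binding protein of motile cells, was already high in immature KO cells. It read 10.09, 9.59 and 9.59 in KO CD11b cells and 10.22, 9.81 and 9.70 in KO CD27 cells, against 9.76, 9.94 and 9.59 in WT CD11b cells and 8.91, 8.94 and 8.10 in WT CD27 cells (interaction -1.26, limma adjusted p = 0.0219, 0.563 without the block). The membrane protein gene Stom had an interaction of -1.35 (adjusted p = 0.0404, 0.234 without the block) and was higher in KO CD27 cells. In KO cells Sulf2, an extracellular sulfatase, changed by 0.05 log2, against 0.96 in WT cells. It was lower on each KO array than on each WT array of the same stage. It read 10.42, 9.71 and 10.69 in KO CD11b cells and 10.36, 9.98 and 10.34 in KO CD27 cells, against 11.90, 11.63 and 12.18 in WT CD11b cells and 11.03, 10.66 and 11.15 in WT CD27 cells (interaction -0.92, limma adjusted p = 0.0225, 0.774 without the block).

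Kir3dl1, a receptor gene of the killer immunoglobulin-like family, was low at every KO stage sampled. It read 4.89, 4.96 and 4.89 in KO CD11b cells and 4.82, 5.18 and 4.77 in KO CD27 cells, against 5.09, 5.04 and 5.16 in WT CD11b cells and 5.86, 6.59 and 6.17 in WT CD27 cells (interaction 1.10, limma adjusted p = 0.0292, 0.135 without the block).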
